A study of Homo sapiens with 16 samples.

Results

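The genes described are MYC, its partner MAX and 42 genes of ribosome biogenesis, 44 in all. They were chosen by name, as members of the nucleolar machinery that makes ribosomes, and each was measured through the probe set of highest mean signal among those that the array annotation gives to that gene alone. Of the 44 genes, 37 had such a probe set, and all 37 passed the filter on low signal and were tested, among 12305 genes tested and 19775 genes named on the array. The other 7 (NOP56, DKC1, BOP1, DDX18, PPAN, EBNA1BP2 and GNL3) were not analysed here. Without MYC and MAX, 35 biogenesis genes remained.

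RNA came from 8 established human B-cell lines that the series calls mantle cell lymphoma lines. Each line was given AFN700 at 5 uM, which inhibits IKKbeta, a kinase of the NF-kB pathway, or 0.025% DMSO as the solvent, for 20 hours. REC-1 and SP49 are labelled sensitive to "stn" and the BTK inhibitor ibrutinib, and JVM-2, JVM-13, Maver-1, Z-138, HBL-2 and GRANTA-519 are labelled insensitive. One Affymetrix array was run per line and treatment, 16 in all, so the line is the replicate and a single line's value has no error of its own. The medium was DMEM for GRANTA-519 and RPMI for the rest. For JVM-13 the agent is given as AFN700 in the title of the treated array but as AFN701 in its treatment field, and the array was used as AFN700.

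MYC is a transcription factor that binds DNA as a dimer with MAX, at the E-box CACGTG and related sequences, and its known targets include many genes of ribosome production. In the nucleolus, RNA polymerase I copies the ribosomal RNA genes. Small nucleolar ribonucleoproteins (snoRNPs) then modify the precursor RNA, and the processome of the small subunit and the assembly factors of the large subunit cut, fold and export it. In B-cell lymphoma, MYC and this machinery are known to support fast growth.

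Promoter sequence was available from RefSeq (GRCh38.p14) for 29 of the 37 tested members, in windows of 300 bases that run from 250 bases before a transcript's start to 50 bases after it. The E-box CACGTG, which reads the same on both strands, was present in a window of 14 of the 29 (48.3%), against 12.9% of the 10050 tested genes with a window. The related motif CACGCG, searched on both strands, was present in 11 of 29 (37.9%), against 22.3% of tested genes. Counting also members that were named but not measured, 16 of 18 CACGTG matches lay within 100 bases of the start, and 7 of the 18 lay before it. The following 4 members are shown as examples of those whose signal was lower with AFN700 in every line except JVM-13. Each sequence has 225 bases before the start and 25 bases of the transcript, read in the direction of the gene, with CACGTG in capitals. IMP4 (chr2:130342672-130342921, plus strand) held the motif 203 bases before the start and again at base 16 of the transcript. RRP9 (chr3:51941880-51942129, minus strand) held it 5 bases before the start and MRTO4 (chr1:19251580-19251829, plus strand) at base 15 of the transcript, while these letters are not in the TSR1 window (chr17:2336433-2336682, minus strand). The related motif CACGCG, not marked here, lay at base 16 of the TSR1 transcript and 67 bases before the start of MRTO4.
IMP4: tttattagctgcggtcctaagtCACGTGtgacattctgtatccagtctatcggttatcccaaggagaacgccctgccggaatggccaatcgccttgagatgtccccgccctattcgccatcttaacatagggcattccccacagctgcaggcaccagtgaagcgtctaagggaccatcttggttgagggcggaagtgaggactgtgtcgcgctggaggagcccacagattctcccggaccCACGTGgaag
RRP9: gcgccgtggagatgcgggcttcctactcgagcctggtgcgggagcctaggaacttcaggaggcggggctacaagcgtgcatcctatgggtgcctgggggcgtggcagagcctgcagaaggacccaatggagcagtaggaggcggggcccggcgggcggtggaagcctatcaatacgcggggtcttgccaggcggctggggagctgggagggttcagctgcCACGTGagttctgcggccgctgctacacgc
MRTO4: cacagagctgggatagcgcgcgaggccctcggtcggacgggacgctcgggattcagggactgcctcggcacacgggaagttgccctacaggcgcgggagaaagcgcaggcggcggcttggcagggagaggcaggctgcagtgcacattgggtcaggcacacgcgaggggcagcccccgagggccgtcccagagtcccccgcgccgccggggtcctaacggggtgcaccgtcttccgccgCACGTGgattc
TSR1: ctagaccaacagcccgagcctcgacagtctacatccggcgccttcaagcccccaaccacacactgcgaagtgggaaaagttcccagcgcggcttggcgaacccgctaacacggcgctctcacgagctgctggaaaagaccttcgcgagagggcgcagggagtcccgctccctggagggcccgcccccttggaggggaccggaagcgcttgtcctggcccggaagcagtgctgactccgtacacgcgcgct
A match is a description of the sequence, not a measured binding site.

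Levels below are the deposited MAS5 intensities, on a linear scale without units, and responses are log2 differences, AFN700 minus DMSO, on the log2(intensity + 3.3) scale. Of 7 B-cell marker genes, all 7 lay above the 60th percentile on every array. The mantle cell lymphoma markers CCND1 and SOX11 together reached 6.2 (DMSO) and 2.6 (AFN700) in JVM-13, and SOX11 was at 0.1 and 0.6 in JVM-2, while CCND1 in JVM-2 was at 78.7 and 79.1. Summed over its list, the level on a DMSO array ranged from 12.4 to 612.3 for 6 T-cell markers, from 11.5 to 146.1 for 4 myeloid markers, from 25.9 to 678.5 for 6 fibroblast markers and from 24.0 to 413.7 for 5 epithelial markers, and the part of other cell types in the results was not tested. The untreated JVM-13 array differed from all others: its median over the tested genes was 7.25 on the log2 scale, against 7.82 to 8.02 on the other 15 arrays. The ratio of 3' to 5' signal of beta-actin, a measure of RNA quality, went from 1.90 with DMSO to 16.7 with AFN700 in HBL-2. Results are therefore given with and without JVM-13, and where it matters without HBL-2 as well.

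MYC had 1 probe set, and its level differed widely between the untreated lines. On the DMSO arrays its intensity was 996.7 in REC-1, 548.2 in SP49, 685.0 in JVM-2, 1100.7 in JVM-13, 1140.3 in HBL-2, 1367.0 in Maver-1, 1531.7 in Z-138 and 198.4 in GRANTA-519. GRANTA-519 was lowest and Z-138 highest, and both sensitive lines lay inside the range of the insensitive ones. With AFN700 it was 1062.8 in REC-1, 581.0 in SP49, 744.1 in JVM-2, 1059.9 in JVM-13, 498.5 in HBL-2, 885.6 in Maver-1, 1965.0 in Z-138 and 185.6 in GRANTA-519. HBL-2 moved from among the higher lines to next to lowest and Maver-1 towards the middle, while GRANTA-519 stayed lowest and Z-138 highest. In bulk RNA, fewer cells with a transcript and less of it per cell cannot be told apart.

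The log2 difference of MYC was -1.19 in HBL-2 and -0.62 in Maver-1, and between -0.09 and 0.36 in the other 6 lines. It was lower in 4 of 8 lines, and the mean over 8 lines was -0.16 ± 0.50 (SD), which an exact 2-sided sign-flip test did not separate from 0 (p = 0.445, smallest p possible 0.00781). Without HBL-2 the mean was -0.02 (p = 0.891, exact sign-flip test). The 3' to 5' ratio of beta-actin on the DMSO and AFN700 arrays was 1.90 and 16.7 in HBL-2 and 10.3 and 18.8 in Maver-1. It was also higher with AFN700 in SP49 (2.73 and 6.39), Z-138 (3.50 and 5.43) and JVM-13 (2.01 and 3.43), where the MYC differences were 0.08, 0.36 and -0.05, and its part in the MYC values was not tested. In the sensitive lines the MYC response was 0.09 ± 0.32 (limma SE, adjusted p = 1.0). On the DMSO arrays MYC was at 772 ± 317 (SD, n = 2) in the sensitive lines and 1004 ± 488 (n = 6) in the insensitive lines, a log2 difference of -0.19 with p = 0.786 in an exact permutation test over the 28 splits, where the smallest possible p is 0.0357.

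MAX, the obligate partner of MYC, was at 1672 ± 504 (SD, n = 8) on the DMSO arrays and at 1701 ± 358 with AFN700. Its DMSO intensity was 1715.1 in REC-1, 1102.6 in SP49, 1426.3 in JVM-2, 2760.3 in JVM-13, 1553.2 in HBL-2, 1279.2 in Maver-1, 1864.3 in Z-138 and 1672.1 in GRANTA-519. With AFN700 it was 1578.8, 1401.4, 1672.1, 1839.7, 1794.0, 1518.0, 1330.3 and 2471.0 in the same order of lines. JVM-13 was highest without the drug and GRANTA-519 with it. The log2 differences ran from -0.58 in JVM-13 to 0.56 in GRANTA-519, with a mean of 0.05 ± 0.41 (SD, exact sign-flip p = 0.758), and the mean was -0.05 once each array was centred on its median. MAX had 5 probe sets. The one next in signal had -0.66 in JVM-13 and 0.32 in GRANTA-519. It had -0.56 in HBL-2 and 0.31 in REC-1, where the one used had 0.21 and -0.12. The probe sets not used had means of -0.05, -0.22, -0.10 and -0.47, so the sign of the mean depends on the probe set. MAX on the DMSO arrays was 0.31 lower on the log2 scale in the sensitive than in the insensitive lines (p = 0.393, exact permutation test), again without separation of the groups.

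**Figure D1:**
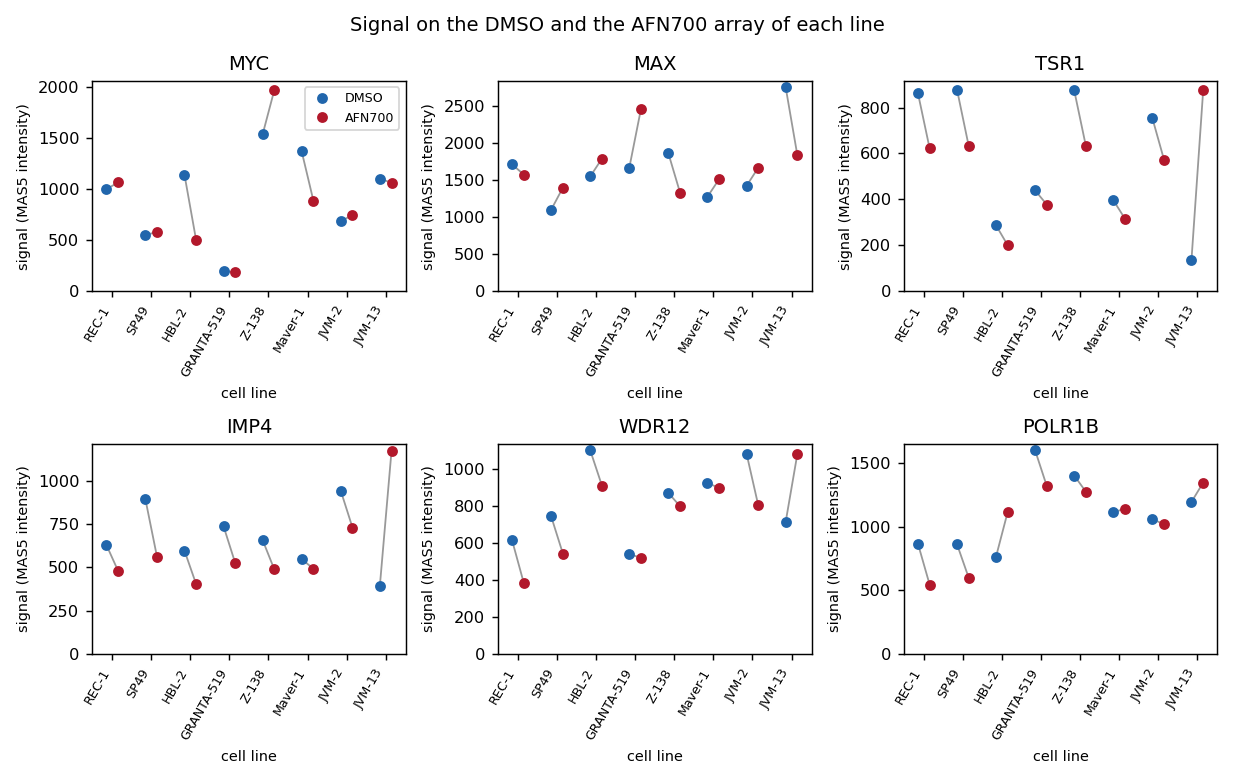
Signal (MAS5 intensity, linear axes from 0) of MYC, MAX and 4 biogenesis genes on the DMSO array (blue) and the AFN700 array (red) of each of the 8 lines, joined by a line. MYC is lower with AFN700 mainly in HBL-2 and Maver-1, while TSR1 and IMP4 are lower in every line except JVM-13, where their DMSO signal is the lowest of all.

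No member passed the threshold for AFN700 over the 8 lines. Of 37 members 0 had an adjusted p under 0.05 (limma with the line as a block, Benjamini-Hochberg over all genes tested), where 0.0% of all genes tested passed, and the smallest adjusted p of a member was 0.604. At an unadjusted p under 0.05 there was 1 member, the RNA helicase DDX21, against 8.18% of all genes. The 35 biogenesis genes had a median mean response of -0.11, against 0.06 for all genes tested, and 26 of the 35 means were below 0, as were 37.1% of those of all genes. In single lines their median response was -0.28 in REC-1, -0.24 in SP49, -0.15 in JVM-2, 0.65 in JVM-13, -0.27 in HBL-2, -0.08 in Maver-1, -0.09 in Z-138 and -0.13 in GRANTA-519. The median of all genes in those lines was, in the same order, 0.05, 0.04, 0.01, 0.27, 0.17, 0.01, 0.03 and -0.05. The biogenesis median thus lay below that of all genes in 7 lines and above it in JVM-13.

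Counts of genes are given beside the share of all genes tested. In REC-1, 29 of the 35 genes were lower with AFN700 (45.1% of all genes), and in SP49 it was 31 (44.3%). Among the insensitive lines 26 were lower in JVM-2 (48.5%), 24 in HBL-2 (39.1%), 25 in Maver-1 (49.0%), 28 in Z-138 (45.1%) and 23 in GRANTA-519 (55.0%). JVM-13 had 11 of 35 lower (38.7%). These differences were small in most lines: a change of 2-fold or more was found for 6 lower genes in HBL-2 (4.46% of all genes) and 1 higher (9.87%), for 11 higher genes in JVM-13 (25.7%), and for none of the 35 in the other 6 lines, where 0.935% to 6.07% of all genes differed that far in a given direction.

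**Figure D2:**
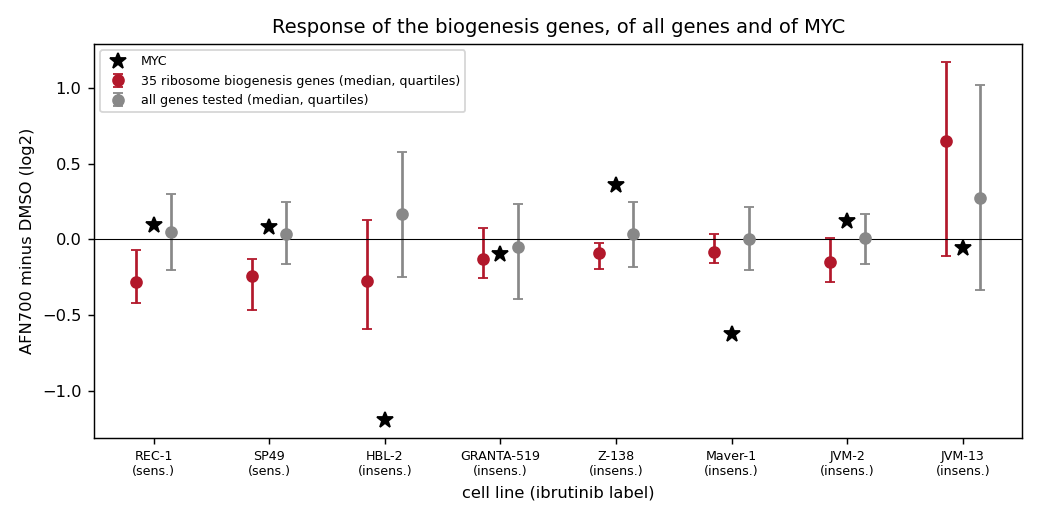
Log2 difference (AFN700 minus DMSO) in each of the 8 lines for the 35 ribosome biogenesis genes (red) and all 12305 genes tested (grey), as median with quartiles, and for MYC (star). The red median is below the grey one in 7 lines and above it in JVM-13, at 0.65 against 0.27, and the star lies well below the red median in HBL-2 and Maver-1.

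Leaving out JVM-13 gave 33 of 35 mean responses below 0 (43.5% of all genes), with a median of -0.15 against 0.03. In that fit 0 of 37 members had an adjusted p under 0.05, where 0.0813% of all genes passed, and the smallest adjusted p values were 0.0918 for IMP4 and 0.0973 for TSR1. At an unadjusted p under 0.05 there were 14 members (37.8%), against 15.0% of all genes. Of these, 13 were lower, beside 5.78% of all genes, and 1 was higher, beside 9.24%. Leaving out HBL-2 as well also gave 0 of 37 members (0.301% of all genes), with 0.0575 as the smallest adjusted p of a member. Lower in each of the 7 lines were 10 biogenesis genes, or 28.6% of the 35, where 2.01% of all genes were. They are POLR1E, TCOF1, WDR43, RRP9, IMP4, BYSL, TSR1, NOB1, WDR12 and MRTO4, a set read from these values and not tested. In 5 of the 8 of these with a promoter window, the window held CACGTG, as in 9 of the 21 other tested members with one. The count was 8 after centring of the arrays (2.49% of all genes), 7 after quantile normalization (2.84%) and 6 with the mean over a gene's probe sets (2.65%).

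**Figure D3:**
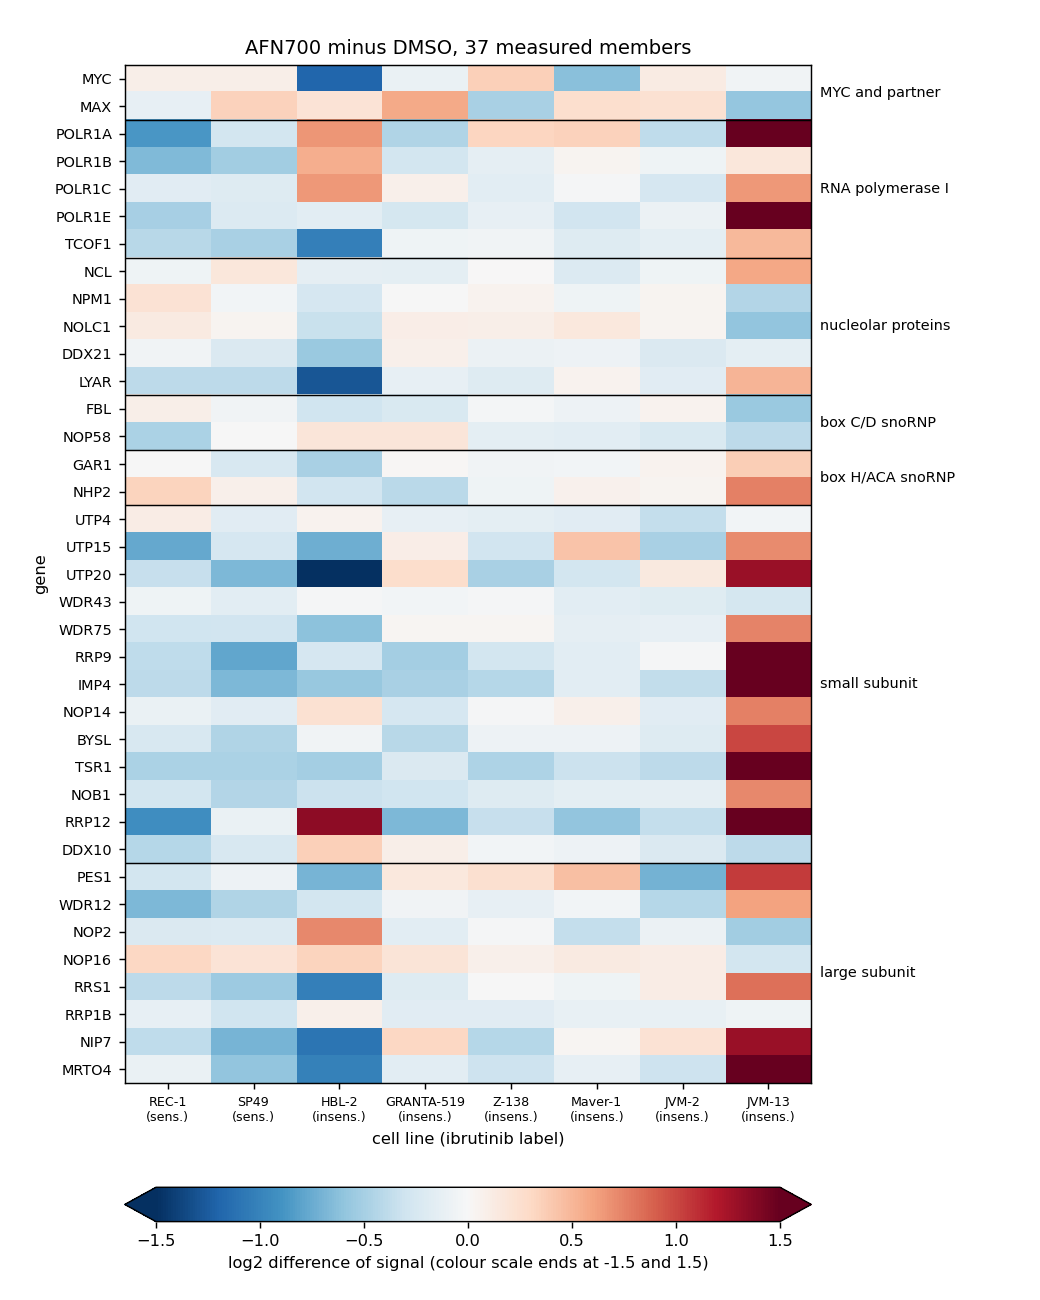
Log2 difference (AFN700 minus DMSO) of the 37 measured members, in order of their role, in each of the 8 lines. Blue is lower and red higher with AFN700, and the colour scale ends at -1.5 and 1.5, so that the values of 2.66 for TSR1 and 2.65 for POLR1A in JVM-13 lie beyond it. RRP9, IMP4, BYSL, TSR1 and NOB1 are blue or pale blue in 7 lines, and most of the JVM-13 column is red.

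Among the RNA polymerase I genes, POLR1A and POLR1B encode the 2 largest subunits of the enzyme, POLR1C a subunit shared with RNA polymerase III, POLR1E an associated factor, and TCOF1 the nucleolar protein treacle. By the probe sets used, all 5 were lower in both sensitive lines (23.8% of all genes), with a median mean response of -0.45 there. Over 8 lines 2 of the 5 means were below 0 (37.1% of all genes), and without JVM-13 all 5 (43.5%, median -0.15). POLR1B had the intensities 868.0 and 545.6 in REC-1, 863.1 and 599.2 in SP49, 1061.1 and 1018.5 in JVM-2, 1194.9 and 1347.3 in JVM-13, 766.0 and 1119.1 in HBL-2, 1113.8 and 1142.3 in Maver-1, 1402.2 and 1275.1 in Z-138, and 1600.0 and 1318.2 in GRANTA-519 (DMSO and AFN700). With AFN700 both sensitive lines, at 572 ± 38 (SD, n = 2), lay below all 6 insensitive ones, at 1203 ± 130 (n = 6). Its log2 response was -0.60 ± 0.21 (SE) in the sensitive lines (limma, adjusted p = 1.0), and it differed from that of the insensitive lines by -0.64 ± 0.25 (limma, adjusted p = 1.0). The probe set used had -0.67 in REC-1 and -0.52 in SP49. Of its other 3 probe sets, all of lower signal, 1 had -0.35 and -0.88 in these lines, 1 had -0.25 and -1.07, and 1 had 0.05 and -0.22. The size of the response in the sensitive lines, and its sign in REC-1, thus depend on the probe set.

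POLR1A had the largest positive mean response of all members, 0.25 ± 0.31 (SE, adjusted p = 0.843, limma). In JVM-13 its intensity was 37.0 with DMSO and 249.2 with AFN700, a log2 difference of 2.65, while in the other lines the difference ran from -0.87 in REC-1 to 0.66 in HBL-2. The mean was -0.09 without JVM-13 and 0.41 without REC-1. The other POLR1A probe sets, of lower signal, had 0.92 and 0.20 in JVM-13 and 0.04 and -0.19 in REC-1. The size of the POLR1A response in these lines, and its sign in REC-1, thus depend on the probe set. POLR1C had a mean of 0.07 ± 0.13 (adjusted p = 0.898), with 0.65 in both HBL-2 and JVM-13. The mean was -0.01 with HBL-2 alone or JVM-13 alone left out, and -0.12 without both. A second POLR1C probe set, of lower signal, had -0.55 in HBL-2, 0.20 in JVM-13, 0.12 in REC-1 and a mean of -0.10. The probe set used had -0.17 in REC-1. The signs in HBL-2 and REC-1, and that of the mean, thus depend on the probe set. TCOF1 was lower in 7 lines, from -0.06 in Z-138 to -1.03 in HBL-2, and higher by 0.48 in JVM-13, with a mean of -0.24 ± 0.17 (adjusted p = 0.707), which was -0.13 without HBL-2. A second TCOF1 probe set, with a mean signal of 187 against 213, was lower in 5 of the 7 lines. It was higher in Z-138 (0.34) and Maver-1 (0.19).

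The mean responses of the 5 nucleolar proteins lay between -0.25 and 0.02. NCL (nucleolin) and NPM1 (nucleophosmin) had mean responses of 0.02 ± 0.09 and -0.06 ± 0.06 (SE), and NOLC1, a chaperone of snoRNPs, -0.04 ± 0.09. The other 2 probe sets of NOLC1, of lower signal, had means of -0.44 and -0.55, and the first of them was lower in all 7 lines without JVM-13 (mean -0.65), where the one used was lower in 1, so the probe sets of NOLC1 disagree. DDX21, a helicase that acts in RNA processing, had the intensities 2372.4 and 2287.3 in REC-1, 2664.2 and 2294.1 in SP49, 2609.4 and 2239.0 in JVM-2, 2547.2 and 2301.7 in JVM-13, 2836.9 and 1921.4 in HBL-2, 2420.7 and 2299.1 in Maver-1, 2923.6 and 2750.1 in Z-138, and 2973.3 and 3133.0 in GRANTA-519 (DMSO and AFN700). By the probe set used, DDX21 was lower in every line except GRANTA-519, with a mean of -0.16 ± 0.07 (limma, adjusted p = 0.604). The value of -0.56 in HBL-2 was the farthest from the others. A second DDX21 probe set, of lower signal, had a mean of -0.14 and -0.60 in HBL-2. It was at -0.03 in GRANTA-519 but higher in Z-138 (0.08) and JVM-13 (0.20), so the lines that differ in sign depend on the probe set. LYAR, a nucleolar protein linked to cell growth, had the lowest mean response of all members over the 8 lines, -0.25 ± 0.16 (adjusted p = 0.683). Its difference was -1.29 in HBL-2, -0.39 in both sensitive lines and 0.51 in JVM-13. Without HBL-2 its mean was -0.10 and no longer the lowest. IMP4, TCOF1 and WDR43 were then at -0.13 each, and other members, NOP2 and POLR1B among them, were lower still.

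In the snoRNPs, FBL (fibrillarin, the methyltransferase of the box C/D class) had a mean response of -0.14 ± 0.08 and NOP58, a core protein of the same class, -0.13 ± 0.09. GAR1 and NHP2, core proteins of the box H/ACA class that guides pseudouridylation, had -0.05 ± 0.10 and 0.07 ± 0.11. NHP2 was among the 4 members of highest mean, but its value was 0.75 in JVM-13 and from -0.40 to 0.34 elsewhere, and -0.03 without JVM-13. None of the 4 had one sign in the 7 lines.

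Of the 10 genes lower in 7 lines, 6 are small subunit factors, as are 13 of the 35 biogenesis genes. All 13 of the small subunit factors had a mean below 0 without JVM-13 (43.5% of all genes; median -0.24), and 11 of 13 over 8 lines (37.1%; median -0.11). IMP4, a component of the U3 snoRNP complex in the processome, had the intensities 630.6 and 480.8 in REC-1, 894.0 and 558.7 in SP49, 941.8 and 729.6 in JVM-2, 391.2 and 1173.8 in JVM-13, 596.8 and 402.8 in HBL-2, 547.3 and 491.8 in Maver-1, 657.6 and 488.1 in Z-138, and 737.4 and 524.5 in GRANTA-519 (DMSO and AFN700). The 7 lines other than JVM-13 had log2 differences from -0.68 in SP49 to -0.15 in Maver-1, while JVM-13 was at 1.58. Over 8 lines the mean was -0.19 ± 0.21 (SE, adjusted p = 0.825), and without JVM-13 it was -0.44 ± 0.09 (adjusted p = 0.0918, limma). Without SP49 the mean of the other lines was -0.12.

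TSR1, needed for maturation of the small subunit precursor, had 863.2 and 622.3 in REC-1, 878.3 and 632.6 in SP49, 753.4 and 571.7 in JVM-2, 136.0 and 875.2 in JVM-13, 286.9 and 199.8 in HBL-2, 396.6 and 315.6 in Maver-1, 874.3 and 631.2 in Z-138, and 439.0 and 377.0 in GRANTA-519. The spread over the 7 lines was narrow, from -0.51 to -0.22 (mean -0.41 ± 0.09 SE, adjusted p = 0.0973, limma), and JVM-13 lay at 2.66, so that the 8-line mean was -0.03 ± 0.30. A second probe set of TSR1 had -0.45 over the 7 lines and was lower in all 7, and the others had -0.08 and 0.05. RRP9, a U3 snoRNP protein, was lower by 0.02 to 0.78 in the 7 lines and higher by 1.89 in JVM-13, with an 8-line mean of -0.06 ± 0.25.

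WDR43, a processome component, was the one member with the same sign in all 8 lines (0.414% of all genes were lower in all 8), but its differences were small, from -0.26 in JVM-13 to -0.02 in HBL-2 and Z-138. Its mean was -0.11 ± 0.07 (SE, adjusted p = 0.668, limma). UTP20, also of the processome, had -1.62 in HBL-2 and 1.29 in JVM-13 and a mean of -0.21 ± 0.25 (adjusted p = 0.836). That mean was -0.01 without HBL-2 and -0.43 without JVM-13. BYSL and NOB1, factors of small subunit assembly named here after their values were seen, had 7-line means of -0.21 ± 0.11 and -0.26 ± 0.10 (adjusted p = 0.366 and 0.252).

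Of the 8 measured large subunit factors, 7 had a mean below 0 without JVM-13 (43.5% of all genes; median -0.21), and the exception was NOP16. WDR12, a member of the PES1-BOP1-WDR12 complex, had the intensities 615.7 and 383.9 in REC-1, 745.1 and 543.4 in SP49, 1084.6 and 804.4 in JVM-2, 714.4 and 1083.4 in JVM-13, 1102.8 and 911.3 in HBL-2, 926.2 and 899.3 in Maver-1, 872.2 and 799.5 in Z-138, and 539.9 and 522.0 in GRANTA-519. The sensitive lines had -0.68 and -0.45, and JVM-2, at -0.43, was nearly as low. Its response in the sensitive lines was -0.56 ± 0.25 (SE, adjusted p = 1.0, limma). The other WDR12 probe sets, of lower signal, had 0.11 and -0.23 in REC-1, -0.92 and -0.76 in SP49, and -0.06 and -0.05 in JVM-2. They were lower in 3 and 6 of the 7 lines without JVM-13, so the WDR12 response depends on the probe set.

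NOP16, a nucleolar protein that is a known MYC target, was higher with AFN700 in each of the 7 lines (3.91% of all genes), by 0.07 to 0.34, and lower by 0.28 in JVM-13. The mean was 0.14 ± 0.08 over 8 lines (SE, adjusted p = 0.668, limma). Its probe sets did not agree: of the other 3, 1 had 0.20 over the 7 lines and the others -0.34 and -0.37, so no direction can be given for the gene. PES1, the partner of WDR12, had a mean of 0.02 ± 0.19. MRTO4, an assembly factor of the ribosomal stalk region, had -1.01 in HBL-2, -0.59 in SP49 and between -0.31 and -0.10 in the other 5 lines, against 1.66 in JVM-13. Over all members, 19 had 33 further probe sets above the filter, and 24 of the 33 had the sign of the one used in the mean of the 7 lines.

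The labelled sensitivity was compared next, first for the response. No member of 37 passed in the sensitive lines (0.0% of all genes), in the insensitive lines (0.0%) or in the difference of the responses (0.0%). At an unadjusted p under 0.05 there were POLR1B and WDR12 in the sensitive lines (2.85% of all genes), none in the insensitive lines (6.04%) and POLR1B in the difference (1.48%). These counts depend on JVM-13 and HBL-2. Without JVM-13 there were 6 of 37 in the sensitive lines (6.44%), 4 in the insensitive lines (10.2%) and 1 in the difference (2.79%). Without both lines there were 17 in the sensitive lines (11.0%), of which 16 were lower (3.51%), 4 in the insensitive lines (12.3%) and 4 in the difference (5.70%), and 0 of 37 at an adjusted p under 0.05 in the sensitive lines (0.0406%, limma). The median mean response of the 35 genes was -0.33 in the sensitive lines, and 28 of them were lower in both, as were 23.8% of all genes. It was -0.04 in the 6 insensitive lines and -0.13 in 5 of them without JVM-13. With 2 sensitive lines, the SE of their response rests on a spread shared by all lines.

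Before treatment, 0 of 37 members differed between sensitive and insensitive lines at an adjusted p under 0.05, where 0.00813% of all genes did, and the smallest adjusted p of a member was 0.890. At an unadjusted p under 0.05 the count of members was 0 as well, against 5.70% of all genes (limma). The largest positive log2 differences, sensitive minus insensitive, were 1.09 ± 0.64 (SE) for TSR1, 0.81 ± 0.88 for POLR1A and 0.62 ± 0.60 for RRP9. TSR1 was at 871 ± 11 (SD, n = 2) in the sensitive lines and 481 ± 281 (n = 6) in the insensitive lines, where Z-138, at 874.3, overlapped the sensitive ones. Without JVM-13 the 3 differences were 0.78, 0.32 and 0.40. The largest negative ones were -0.42 ± 0.29 for POLR1B, -0.42 ± 0.29 for LYAR and -0.40 ± 0.21 for FBL, which was -0.255 without SP49. POLR1B on the DMSO arrays was at 866 ± 4 in the sensitive lines and 1190 ± 288 in the insensitive lines, with HBL-2 (766.0) below both sensitive lines.

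Variation between the untreated lines was taken as the SD of the log2 level. The SD of the log2 level over the 8 DMSO arrays had a median of 0.32 for the 35 genes, 0.70 for all genes tested and 0.38 for the quartile of genes with the highest mean signal, where the 22 biogenesis genes in it had 0.27. The widest spreads were 1.22 for POLR1A, 1.06 for RRP12, a factor of ribosome export, and 0.96 for TSR1. These were 0.64, 0.88 and 0.66 without JVM-13, which had the lowest DMSO intensity of all lines for each of the 3. Over the 35 genes JVM-13 was the lowest line for 16 and the highest for 8, as it was for 32.4% and 17.2% of all genes. The narrowest spreads were 0.12 for DDX21 and 0.13 for UTP4, a processome protein, whose DMSO intensity ran from 1254.2 in Maver-1 to 1619.0 in JVM-13. In MYC the SD was 0.95.

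The relation of the module to MYC was taken over the 8 lines, as a description, since all arrays were scaled to the same trimmed mean and differ in RNA quality. The r of a gene with the mean of the other biogenesis genes on the DMSO arrays had a median of 0.50 (-0.87 to 0.94). Without JVM-13 that median was 0.04 (-0.89 to 0.88), so the mean is a loose summary of the genes. On the DMSO arrays the mean log2 level of the 35 genes had r = -0.10 and rho = -0.10 with MYC. Leaving out SP49 and GRANTA-519, the lines farthest from the median of MYC, gave r = 0.17, and leaving out JVM-13 gave 0.12. With AFN700 the values were r = 0.41 and rho = 0.52, and r = 0.72 without GRANTA-519 and Z-138. The differences had r = 0.09 and rho = -0.12, and r = -0.39 without HBL-2 and Maver-1. GRANTA-519 had the lowest MYC level on both arrays, with a module mean of 9.70 that lay inside the range of the other lines (9.26 to 9.86), and Z-138 had the highest of both on the DMSO arrays.

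**Figure D4:**
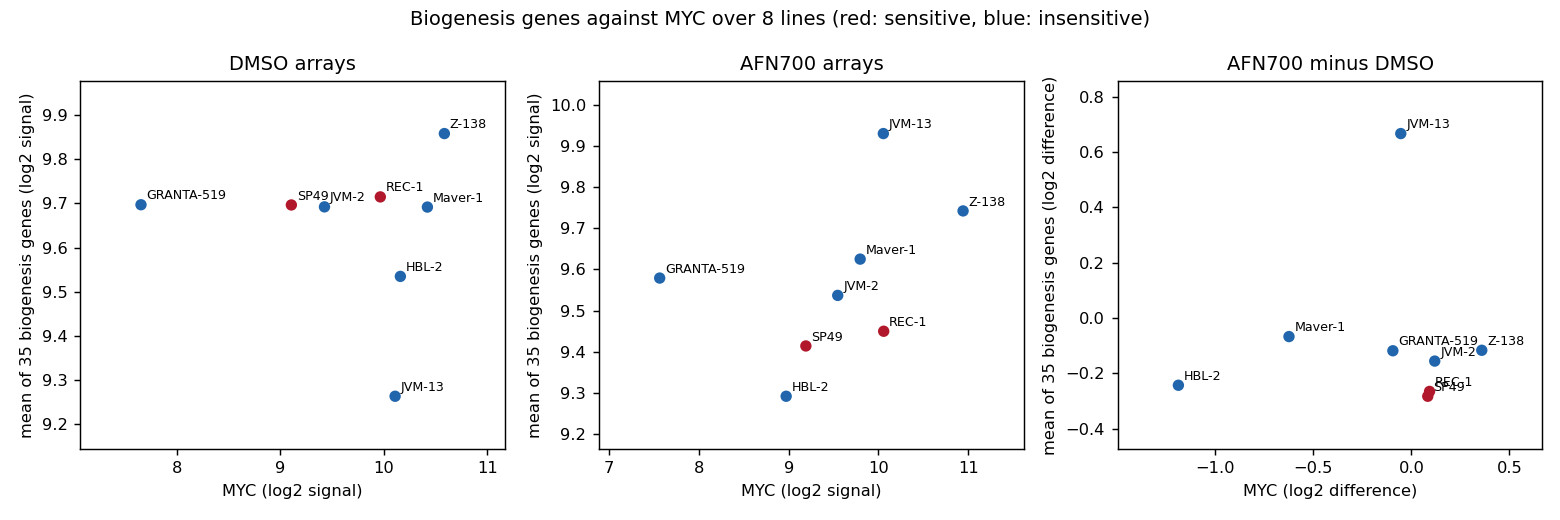
Mean log2 signal of the 35 biogenesis genes against log2 signal of MYC on the DMSO arrays (left) and the AFN700 arrays (centre), and the mean difference against that of MYC (right), 1 point per line with red for sensitive and blue for insensitive lines. Axes are log2 and do not start at 0. On the left GRANTA-519, lowest in MYC, is level with SP49, JVM-2 and Maver-1, and on the right HBL-2, at -1.19 for MYC, has a module value close to that of SP49.

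For single genes, r with MYC over the 8 DMSO arrays had a median of -0.11 over the 35 genes, beside -0.07 for all genes, and 16 of 35 were above 0 (42.2% of all genes). The highest were RRP1B, a nucleolar protein of large subunit processing (0.76), WDR12 (0.57) and NCL (0.46). RRP1B was highest in Z-138 (2479.3) and lowest in GRANTA-519 (1395.3), as MYC was, and ran from 1763.7 to 2036.2 in the other 6 lines. The lowest were IMP4 (-0.49), GAR1 (-0.42) and DDX21 (-0.40). For the differences the sign of RRP1B turned, with r = -0.73.

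JVM-13 went the other way for most members. Its module median was 0.65, against -0.28 to -0.08 in the other lines, and TSR1, POLR1A, RRP12 (2.14), POLR1E (1.91) and RRP9 had the largest values. Genes were grouped by mean log2 signal over the 8 DMSO arrays, that of JVM-13 among them. The groups therefore share an array with the JVM-13 differences. In JVM-13 the median of the members was 1.89 in the second quartile of genes (3 members, 0.60 for all genes). In the third it was 1.03 (10 members, 0.43) and in the highest 0.27 (22 members, -0.01). After centring of the arrays the module median of JVM-13 was -0.01 and that of all genes -0.39, and after quantile normalization they were 0.41 and 0.02. The module thus lay above all genes in JVM-13 under each scaling, while its sign turned with centring. The r between its 2 arrays over all genes tested was 0.924, against 0.964 to 0.990 in the other lines. The low DMSO array moved with these values, and its part in them was not tested.

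Other genes of the same pathways were counted from lists by role, and none passed over the 8 lines at an adjusted p under 0.05 (limma). Of 39 tested small subunit factors outside the 44, 23 had a mean response below 0, and 32 without JVM-13. The smallest p values belonged to RCL1, a processome protein (-0.55 ± 0.18 SE, adjusted p = 0.508), and the kinase RIOK2 (0.15 ± 0.11, adjusted p = 0.724). Among 43 large subunit factors 29 means were below 0, and 36 without JVM-13. RPF2, which brings the 5S particle to the precursor, was lower in all 8 lines, with a mean of -0.24 ± 0.09 (adjusted p = 0.552), and WDR74 had -0.34 ± 0.14 (adjusted p = 0.585). The shares below 0 for all genes were 37.1% over 8 lines and 43.5% without JVM-13.

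Lists nearer to MYC were smaller. Of 8 tested genes of the MYC network, 2 had a mean below 0, and MGA, a MAX-binding repressor, was higher in the 7 lines other than JVM-13 (mean over 8 lines 0.15 ± 0.13, adjusted p = 0.763). Of 18 MYC targets outside the ribosome 12 were below 0, with a median of -0.03. PA2G4, a growth regulator, had -0.10 ± 0.07 and ODC1, an enzyme of polyamine synthesis, -0.07 ± 0.07 (adjusted p = 0.711 and 0.805). Below 0 were also 6 of 11 other RNA polymerase I genes and 6 of 10 other snoRNP assembly genes. NUFIP1, a snoRNP assembly factor, had the smallest p of that list, with -0.37 ± 0.15 (adjusted p = 0.566).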

How the data were processed

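The authors deposited a linear intensity per probe set. Per the submitters' processing notes it was made by MAS5, whose version is not given in the sources used here. All 16 arrays have a trimmed mean of about 150, so they were scaled globally and a change in total RNA per cell is not visible. Without detection calls, low signal and background cannot be separated. The array number limits precision.

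Of 54675 probe sets, 41097 had 1 gene in the platform annotation, 1801 several and 11777 none. Symbols were updated with the GRCh38.p14 RefSeq gene table. The probe set of highest mean stood for each gene. The analysis used log2(intensity + 3.3), with the 25th percentile of all values as pseudocount, so differences of low genes are understated. Tested genes exceeded the 60th percentile of an array on 2 arrays or more.

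Tests used limma 3.58.1 (R 4.3.3; lmFit, eBayes with trend), with the line, which the labels give, as a block that pairs the arrays, and Benjamini-Hochberg adjustment over all genes tested, at a threshold of 0.05. SE is the moderated standard error. MYC and MAX also had exact tests (scipy 1.17.1). P-values measure the spread between lines, each with 1 array per treatment. The fit was tested on simulated data.

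Members and lists were chosen with earlier results of these data known. Named were MYC and MAX, the 4 largest mean responses in each direction, members of one sign in 8 lines, the 3 largest DMSO contrasts and correlations with MYC in each direction, the 3 largest and 2 smallest spreads between untreated lines, and up to 2 genes per pathway list by p. Alternatives were other pseudocounts, filters and normalizations, the mean of probe sets, no trend, no block, a threshold of 0.10, and leaving out lines. The count of genes lower in 7 lines was added after seeing the data.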

Additional observations from a re-analysis of the deposited data

Results flagged for a closer look

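With 8 lines, a line was picked out where its gap to the nearest other line was large against the whole range (Dixon's criterion). Chance gives about 1 in 20 of independent groups, and 17 of 114 were picked out, 14 of them in JVM-13. The groups share lines and arrays, among them the low JVM-13 DMSO array, so they are not independent. The share over all genes tested is not given, so the count is not read as a trait of the members. In JVM-13 the log2 difference, AFN700 minus DMSO, stood above the other lines for TSR1 (2.66), POLR1A (2.65), POLR1E (1.91), RRP9 (1.89), MRTO4 (1.66), IMP4 (1.58), BYSL (1.01), NOP14 (0.76), WDR75 (0.74) and NOB1 (0.72), and below them for NOP16 (-0.28). The median difference of the biogenesis genes in JVM-13 (0.65) stood apart as well. On the DMSO arrays JVM-13 was low for TCOF1 (log2 level 7.22) and high for NPM1 (12.99). In HBL-2 the differences of DDX21 (-0.56, low) and NOP2 (0.72, high) and the TCOF1 level with AFN700 (6.78, low) stood apart.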

How the results depend on the processing

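No member passed the adjusted threshold under any alternative, including the fit with no replicate block. The cause of the following changes was not tested. Centring turned the 8-line means of MAX (-0.048), POLR1C (-0.025) and NHP2 (-0.033), and the mean of probe sets those of MAX (-0.16), NOP16 (-0.092) and POLR1C (-0.015). Without JVM-13 and HBL-2, POLR1A was at -0.22 and POLR1C at -0.12, and the MYC contrast of the DMSO arrays at 0.015. With 1 line left out at a time, the mean ranged from -0.023 to 0.14 for MAX, -0.094 to 0.41 for POLR1A, -0.0091 to 0.12 for POLR1C and -0.033 to 0.13 for NHP2. The MYC contrast ranged from -0.62 to 0.24, the latter without SP49. The correlation of module and MYC was 0.48 after centring and 0.49 without JVM-13 and HBL-2 on the DMSO arrays, and -0.46 for the differences without both lines. The count of genes lower in 7 lines was 6 with the mean of probe sets. Genes called over the 8-line response numbered 10 without JVM-13 and 37 without both lines, in the sensitive lines 5 without both, and in the DMSO contrast 46 without SP49.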

Other observations

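The array also holds a probe set for the 45S precursor of ribosomal RNA (RNA45SN5), the transcript of RNA polymerase I, which was looked up after the other values were seen and cannot be told from its near-identical copies. Its intensity on the DMSO and AFN700 arrays was 30.3 and 77.0 in REC-1, 28.5 and 164.5 in SP49, 25.2 and 31.9 in JVM-2, 43.3 and 14.5 in JVM-13, 33.2 and 20.9 in HBL-2, 40.6 and 41.6 in Maver-1, 16.7 and 33.2 in Z-138, and 40.9 and 78.2 in GRANTA-519. It was higher with AFN700 in 6 of 8 lines, most in SP49 and REC-1. The DMSO signals, from 16.7 to 43.3, are low, and without detection calls low signal and background cannot be separated. Whether this probe set follows the output of RNA polymerase I was not tested. The mean log2 difference was 0.47 ± 0.33 (SE, adjusted p = 0.714, limma) over 8 lines and 1.83 ± 0.53 (adjusted p = 1.0) in the sensitive lines, so neither passed the threshold.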
